A study of Homo sapiens with 6 samples.

Results

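The BCL2 family decides whether the outer membrane of mitochondria is opened during apoptosis. Survival proteins such as BCL2, BCL-XL (gene BCL2L1) and MCL1 hold the pore-forming proteins BAK (gene BAK1) and BAX in check, and the BH3-only proteins bind and neutralize the survival proteins or activate the pore formers directly. In colorectal cancer cells, BCL-XL and MCL1 are known as the main survival proteins. The 10 genes described here were given by name and matched by gene ID: 3 survival genes (BCL2, BCL2L1, MCL1), 1 pore former (BAK1) and 6 BH3-only genes (BID, BCL2L11, BAD, BIK, BMF, PMAIP1). They are 10 of the 58884 gene IDs in the tables. A total of 9 were among the 14334 genes with enough counts to test, and BMF was not.

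RNA came from HCT116, an established line of human colorectal cancer cells, 48 h after transfection of a pool of siRNAs against Matrin3 (siMatrin3, 3 libraries) or of a negative control siRNA (siCTRL, 3 libraries). Matrin3 is a nuclear RNA-binding protein with a role in splicing, and the study asked what its loss does to growth and to the mitotic spindle. The paper also examined apoptosis by annexin V and PI staining. In HCT116 cells it reports neither cell death nor an altered cell cycle after the knockdown. All libraries come from 1 cell line, which was otherwise untreated, and the methods call them biological triplicates. The methods describe removal of ribosomal RNA, whereas the sample labels name a stranded mRNA kit.

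The libraries held 4556658 to 8400412 estimated counts. MATR3, the targeted gene, was at 72.4, 67.9 and 71.4 CPM (counts relative to library size, scaled between libraries by TMM) in siMatrin3 and 363, 343 and 330.2 CPM in siCTRL, with a log2 fold change of -2.29 ± 0.06 (SE, adjusted p = 7.58e-11 by edgeR). Of 8 epithelial markers, 6 were high enough to test, and all 8 summed to 1800 to 1898 CPM in siMatrin3 and 1577 to 1724 CPM in siCTRL. EPCAM and KRT19 were higher in siMatrin3 (log2 fold changes 0.28 and 0.23), and the part of this in the results that follow was not tested. KRT20 and VIL1, markers of differentiated colon epithelium, were too low to test. Of 6 fibroblast and 6 blood markers, 1 of each kind was tested, COL1A1 and CD68, neither passed. The fibroblast markers summed to 16.9 to 21.6 CPM in siMatrin3 and 18.6 to 20.2 CPM in siCTRL, the blood markers to 0.696 to 3.84 CPM in siMatrin3 and 0 to 2.82 CPM in siCTRL, and COL1A2, COL3A1, DCN, LUM, CD3E and HBB had no counts in any library. By edgeR's quasi-likelihood test with an adjusted p under 0.05, 5.68% of the tested genes rose after Matrin3 knockdown and 5.18% fell, 10.9% together.

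Of the 9 tested genes of the family, BAK1 and PMAIP1 fell and BID rose after Matrin3 knockdown, and the other 6 did not pass. These are 2 lower and 1 higher of 9, read against the 5.18% and 5.68% of all genes. Each change was small, with log2 fold changes between -0.45 and 0.34. None of the 3 survival genes passed the test (unadjusted p of 0.0285 for BCL2, 0.0816 for BCL2L1 and 0.0329 for MCL1). The median log2 fold change of the 9 was -0.16, against 0.00 over all tested genes. In these bulk libraries, fewer cells with a transcript and less of it per cell cannot be told apart, and neither the isoform nor the protein was measured.

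**Figure D1:**
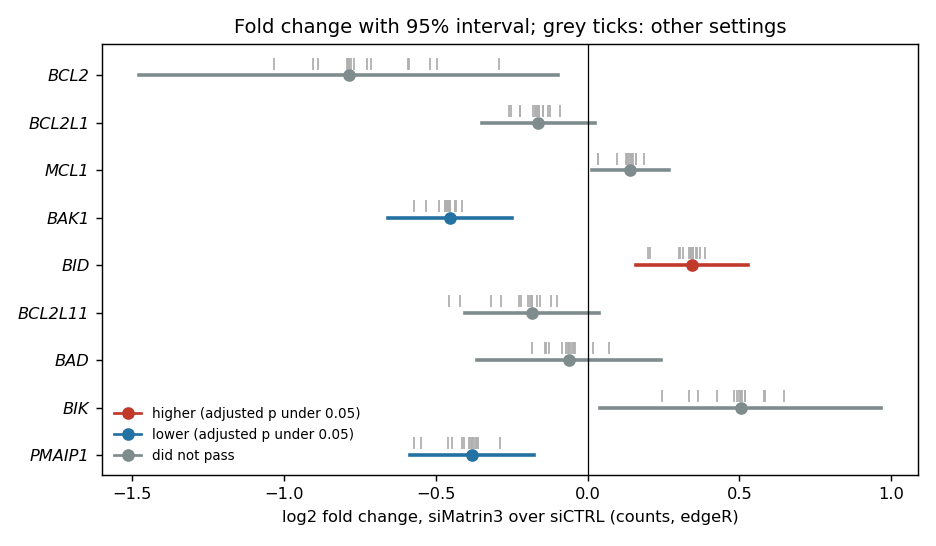
Log2 fold change of siMatrin3 over siCTRL (x axis) for the 9 tested genes (y axis), with the 95% interval from edgeR as a bar and the estimates under other settings as grey ticks. BAK1 (-0.45) and PMAIP1 (-0.38) lie below 0 and BID (0.34) above it, while BCL2 (-0.79) has the widest interval.

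The levels of the 10 transcripts were compared first, per length, as TPM (the relative number of transcripts within a library, corrected for length). MCL1 was the most abundant in all 6 libraries, with 49.9, 46.4 and 45.0 TPM in siMatrin3 and 48.7, 46.2 and 43.2 TPM in siCTRL. BCL2L1 (mean of 30.7 TPM over the 6 libraries) and BID (30.1 TPM) came next and exchanged places between libraries: BID was above BCL2L1 in all 3 siMatrin3 libraries, and BCL2L1 was above BID in all 3 siCTRL libraries. The range of BID also overlapped that of PMAIP1 (22.6 TPM), and in siCTRL replicate 1 BID was below both PMAIP1 and BAD. PMAIP1 and BAD (21.9 TPM) overlapped in their ranges, as did BCL2L11 (12.6 TPM), BAK1 (12.4 TPM) and BIK (10.2 TPM), so that their order within these groups was not separated by the spread. BCL2 was at 0.62 to 1.85 TPM and BMF at 0 to 0.61 TPM. MCL1 stood above 87.2% of the tested genes by mean TPM, and BCL2 above 4.87%. BCL2, the gene that names the family, was near the floor of the tested range in these cells, and among the 3 survival genes nearly all transcripts were those of BCL2L1 and MCL1.

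**Figure D2:**
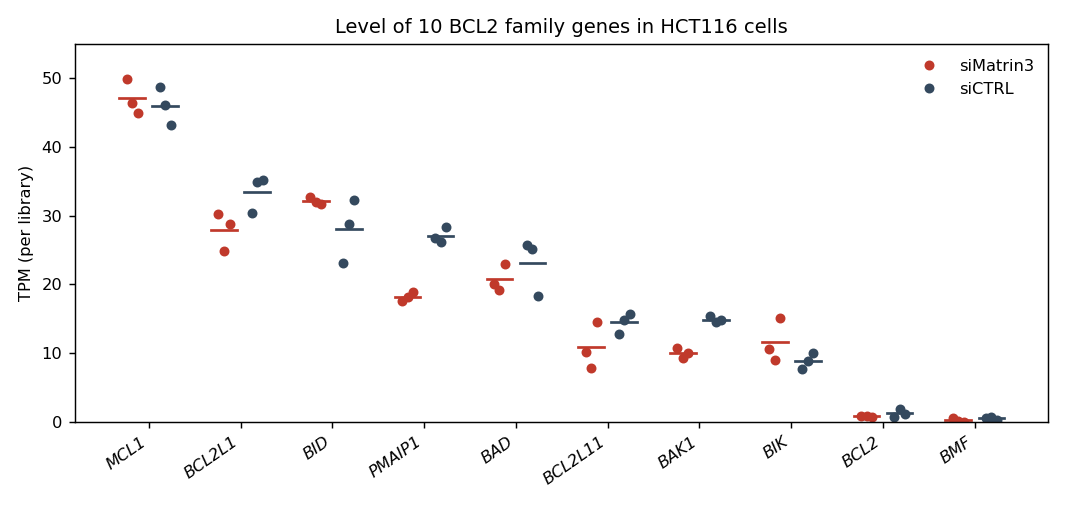
TPM (y axis, from 0) of the 10 genes in order of their mean; points are the 3 siMatrin3 and the 3 siCTRL libraries, and lines are group means. PMAIP1, BAK1 and, by a narrow margin, BCL2L1 have 3 siMatrin3 points below every siCTRL point, although BCL2L1 did not pass the test. BCL2 and BMF lie near 0.

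The survival genes were examined next. MCL1 (ENSG00000143384, chr1:150560895-150579738 on hg38, minus strand) encodes a short-lived survival protein that restrains BAK. It was at 169, 162 and 170.0 CPM in siMatrin3 and 153, 159 and 142 CPM in siCTRL. All 3 siMatrin3 libraries lay above the siCTRL libraries, but the difference was small and did not pass (log2 fold change 0.14 ± 0.06 SE, 95% interval 0.01 to 0.27, adjusted p = 0.152 by edgeR). An absence of overlap in CPM, in either direction, was found for 29.8% of all tested genes, and in TPM the MCL1 libraries overlapped. BCL2L1 (ENSG00000171552, chr20:31664452-31723989, minus strand) encodes BCL-XL and, from an alternative splice site, the pro-death form BCL-XS, which gene totals do not separate. Its libraries overlapped, with 72.4, 62.9 and 76.6 CPM in siMatrin3 and 71.2, 81.7 and 83.5 CPM in siCTRL (log2 fold change -0.16, 95% interval -0.35 to 0.02, adjusted p = 0.268 by edgeR). In TPM they were apart by a narrow margin, with 30.2, 24.9 and 28.8 in siMatrin3 and 30.3, 34.9 and 35.2 in siCTRL (exact two-sided permutation p = 0.1). The TPM scale was itself shifted, with a median log2 fold change of all genes of -0.09 on log2(TPM + 1). Relative to that median, BCL2L1 was at -0.16 and MCL1 at 0.13. Relative to the median in counts, BCL2L1 was likewise at -0.16 and MCL1 at 0.14. Its span holds 2 antisense RNAs, of which ABALON was at 5.77 ± 0.680 CPM in siMatrin3 and 6.50 ± 0.177 CPM in siCTRL (SD, n = 3 each). BCL2 (ENSG00000171791, chr18:63123346-63320128, minus strand), which binds BIM and other BH3-only proteins, had 16 to 67 counts per library. Its level was 2.61, 4.18 and 4.05 CPM in siMatrin3 and 3.45, 7.88 and 6.69 CPM in siCTRL. The groups overlapped because siCTRL replicate 1 was as low as the siMatrin3 libraries, and the fold change had a wide interval (log2 fold change -0.79, 95% interval -1.48 to -0.10, adjusted p = 0.140). Without that library BCL2 passed (log2 fold change -1.03, adjusted p = 0.0454 by edgeR, range over its alternatives 0.0454 to 0.557).

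BAK1 (ENSG00000030110, chr6:33572547-33580293, minus strand) encodes BAK, the protein that sits in the outer mitochondrial membrane and assembles into pores once activated. It had the lowest p of the family. BAK1 was at 23.3, 20.9 and 22.8 CPM in siMatrin3, against 31.7, 30.4 and 29.9 CPM in siCTRL, so that the groups did not overlap. The siMatrin3 mean of 22.3 ± 1.27 CPM was 72.7% of the siCTRL mean of 30.7 ± 0.919 CPM (SD, n = 3 each). By edgeR, BAK1 fell by 0.45 ± 0.09 on the log2 scale (SE, adjusted p = 0.00851). The difference was also seen in TPM, at 9.99 ± 0.675 in siMatrin3 and 14.9 ± 0.442 in siCTRL, and an exact two-sided permutation test of these values gave p = 0.1, which is as low as a test of 3 against 3 can go. The call held without any single library, at log2 fold changes of -0.49 to -0.41, and with DESeq2 (adjusted p = 0.0352), but not on TPM values with limma (adjusted p = 0.0768) or with effective lengths as an offset (adjusted p = 0.101), in a range over its alternatives of 0.00503 to 0.101. The effective length of BAK1, a mean over isoforms weighted by their estimated abundance, was 2121 bases in every library.

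PMAIP1 (ENSG00000141682, chr18:59899996-59904305, plus strand) encodes NOXA, a small BH3-only protein that binds MCL1 and promotes its degradation, and whose transcription is known to respond to ATF4. It was at 28.0, 33.4 and 34.6 CPM in siMatrin3 and 39.5, 42.2 and 42.4 CPM in siCTRL. Every siMatrin3 library was below every siCTRL library. The means were 32.0 ± 3.54 CPM in siMatrin3 and 41.4 ± 1.64 CPM in siCTRL (SD, n = 3 each), with a log2 fold change of -0.38 ± 0.09 (SE, adjusted p = 0.0211 by edgeR). Per length the groups were further apart, with 17.6, 18.1 and 18.9 TPM in siMatrin3 and 26.7, 26.1 and 28.4 TPM in siCTRL. Part of this is the shift of the TPM scale. On log2(TPM + 1) PMAIP1 was at -0.55, and at -0.46 relative to the median of all genes. The effective length was 1667 ± 107 bases in siMatrin3 and 1571 ± 55.3 bases in siCTRL, a difference that did not exceed the spread (exact two-sided permutation p = 0.3). The call was lost without siCTRL replicate 2 (log2 fold change -0.36, adjusted p = 0.0775 by edgeR), siCTRL replicate 3 (-0.36, 0.0884) or siMatrin3 replicate 1 (-0.29, 0.0928), with DESeq2 (adjusted p = 0.0580) and with effective lengths as an offset (0.0702), in a range over its alternatives of 0.00885 to 0.0928. It held on TPM values, where limma gave an adjusted p of 0.0405.

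**Figure D3:**
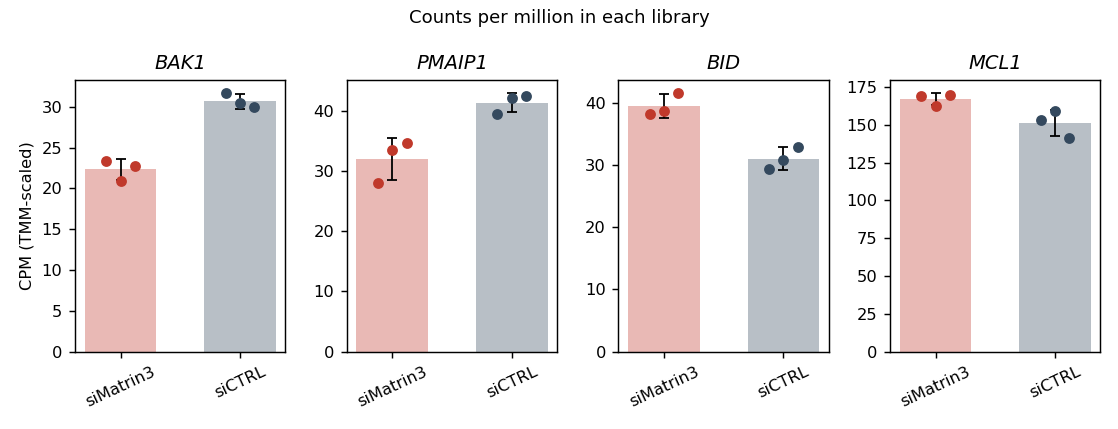
Level in CPM of BAK1, PMAIP1, BID and MCL1 (y axes start at 0 and differ in scale) in siMatrin3 and siCTRL, with 1 point for each library, the group mean as a bar and its SD as the error bar. BAK1 and PMAIP1 are lower in every siMatrin3 library than in any siCTRL library, and BID and MCL1 are higher, although MCL1 did not pass the test.

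Because BAK1 and PMAIP1 moved in the same direction, their start regions are shown, from 250 bases before to 50 after the start site (RefSeq, GRCh38.p14). RefSeq windows were matched for 8 of the 10 genes. Capitals mark the motifs searched, on either strand. The GC box was searched as GGGCGG and the CCAAT box by its name. The core of the cAMP response element was searched as TGACG. The E-box was searched as CACGTG. The TATA box TATAAA and the E2F site TTTCGCGC were searched as well but are not marked. In the family, TATAAA was found only in a window of BCL2L1, and TTTCGCGC in no window. Over all windows their shares were 11.5% and 0.515%.
PMAIP1 chr18:59899746-59900045, plus strand: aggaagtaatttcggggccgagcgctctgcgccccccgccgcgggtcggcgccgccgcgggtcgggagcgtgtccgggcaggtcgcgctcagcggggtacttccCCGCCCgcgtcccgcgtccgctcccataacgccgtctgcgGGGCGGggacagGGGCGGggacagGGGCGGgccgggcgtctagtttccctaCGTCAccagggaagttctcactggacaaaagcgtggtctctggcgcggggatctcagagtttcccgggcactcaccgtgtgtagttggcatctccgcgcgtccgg
BAK1 chr6:33580227-33580526, minus strand: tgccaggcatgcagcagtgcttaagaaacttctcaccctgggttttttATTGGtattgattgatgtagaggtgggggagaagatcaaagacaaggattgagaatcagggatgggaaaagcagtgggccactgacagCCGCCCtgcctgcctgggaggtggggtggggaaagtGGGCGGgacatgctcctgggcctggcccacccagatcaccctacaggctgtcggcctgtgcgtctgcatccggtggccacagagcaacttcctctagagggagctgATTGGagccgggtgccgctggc
The PMAIP1 window held 4 GC boxes, starting 146, 106, 94 and 82 bases before the start site, and a TGACG on the opposite strand 55 bases before it. The BAK1 window held 2 GC boxes, starting 114 and 78 bases before the start site. It also held 2 CCAAT boxes on the opposite strand, 202 bases before and 28 bases after the start site. These motifs were not particular to the genes that fell. Windows of BID, which rose, also held GC boxes, as did those of BCL2L11, BAD, BMF and BCL2L1. CCAAT was also in windows of BCL2L11, BAD and BMF, and TGACG in those of BAD, BMF, BCL2 and BCL2L1. Of the genes with windows, only BID had an E-box, a single site shared by overlapping windows. BID also had more windows than any other gene of the family, and MCL1 and BIK had none. GC boxes occurred in 45% of all 35116 promoter windows, CCAAT in 34.6%, TGACG in 24.6% and the E-box in 7.26%. The full element TGACGTCA, found in 1.85% of windows, was in none of the windows of the family.

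BID (ENSG00000015475, chr22:17734138-17774770, minus strand) encodes the protein that caspase 8 cleaves to carry a death receptor signal to mitochondria. It was at 38.1, 38.7 and 41.6 CPM in siMatrin3 and 29.3, 30.8 and 32.9 CPM in siCTRL, with no overlap. The means were 39.5 ± 1.89 CPM in siMatrin3 and 31.03 ± 1.80 CPM in siCTRL (SD, n = 3 each), a log2 fold change of 0.34 ± 0.09 (SE, adjusted p = 0.0211 by edgeR). In TPM the groups overlapped, with 32.7, 32.0 and 31.7 in siMatrin3 and 23.2, 28.8 and 32.3 in siCTRL (exact two-sided permutation p = 0.3). The low value of siCTRL replicate 1 and the high value of siCTRL replicate 3 stood beside effective lengths (a mean over isoforms weighted by abundance) of 1304 and 1064 bases. The call was lost without siCTRL replicate 1 (log2 fold change 0.31, adjusted p = 0.0664 by edgeR), siCTRL replicate 2 (0.34, 0.0686) or siMatrin3 replicate 3 (0.30, 0.0888), with DESeq2 (adjusted p = 0.0846), with effective lengths as an offset (0.280) and on TPM values (0.423), in a range over its alternatives of 0.0115 to 0.426.

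The remaining BH3-only genes did not pass. BCL2L11 (ENSG00000153094, chr2:111119378-111168444, plus strand) encodes BIM, which binds all survival proteins and activates the pore formers. It was at 33.6, 34.996 and 41.5 CPM in siMatrin3 and 38.6, 39.8 and 46.5 CPM in siCTRL, groups that overlapped (log2 fold change -0.18, 95% interval -0.40 to 0.04, adjusted p = 0.293 by edgeR). BCL2L11 lies within the span of MIR4435-2HG on the opposite strand, a non-coding RNA at 11.7 ± 1.54 CPM in siMatrin3 and 16.0 ± 2.12 CPM in siCTRL (SD, n = 3 each), and whether reads of the pair were separated was not tested. BAD (ENSG00000002330, chr11:64269830-64284704, minus strand), whose protein is held inactive by 14-3-3 proteins when phosphorylated, was at 16.2, 18.6 and 19.7 CPM in siMatrin3 and 19.4, 21.4 and 15.3 CPM in siCTRL. Its groups overlapped fully and its direction was not fixed (log2 fold change -0.06, 95% interval -0.36 to 0.24), turning to 0.07 without siCTRL replicate 2 and 0.02 without siMatrin3 replicate 1. BAD overlaps GPR137 on the opposite strand, which was at 11.2 ± 1.45 CPM in siMatrin3 and 10.5 ± 0.124 CPM in siCTRL (SD, n = 3 each).

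BIK (ENSG00000100290, chr22:43110750-43129712, plus strand), a BH3-only protein of the endoplasmic reticulum, was at 9.88, 8.53 and 14.7 CPM in siMatrin3 and 6.69, 7.88 and 8.63 CPM in siCTRL. The high mean of siMatrin3 rested on replicate 3, and the groups overlapped (log2 fold change 0.50, 95% interval 0.04 to 0.97, adjusted p = 0.158 by edgeR). BMF (ENSG00000104081, chr15:40087890-40108892, minus strand), whose protein is tethered to myosin motors until the cell detaches or is stressed, had 6, 3 and 0 counts in siMatrin3 and 7, 13 and 7 counts in siCTRL. Summed over libraries these were 9 counts in siMatrin3 and 27 counts in siCTRL, a ratio of 0.323 per unit of depth with an exact 95% interval of 0.134 to 0.707 that covers counting error only. BMF was below the count filter, and without that filter it did not pass either (log2 fold change -1.58, adjusted p = 0.157 by edgeR, range over the 3 settings that tested it 0.157 to 0.244).

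The 3′ untranslated regions (3′ UTRs) of the family were then searched for 5 heptamers, in the canonical transcripts of GENCODE release 44. The heptamer TTACAAA and its neighbour ATTACAA were chosen with earlier results of these libraries known, as were GAAGACT and its neighbour AAGACTA. In those results they were frequent among changed genes. Neither their presence in a changed gene nor their shares among changed genes are therefore independent evidence. TATTTAT is a core of AU-rich elements, through which decay proteins shorten the life of many mRNAs, including several of this family. BID, which rose, held TTACAAA 3 times, shown with the heptamer in capitals and the base of the 3′ UTR where it starts.
BID heptamer at base 471: gaacataccccTTACAAAtgaaaaattcc
BID heptamer at base 727: ccactgtttgtTTACAAAatcaggtaact
BID heptamer at base 1367: tgggcaaaagcTTACAAAtactaaaaaga
TTACAAA occurred at least once in 21.2% of 12055 tested genes, in 34.8% of those that rose and in 27.6% of those that fell. Of 1641 genes with a 3′ UTR within 20% of the length of that of BID (1442 bases), 0.244% held it at least 3 times. MCL1 held TTACAAA 1 time, and 33.3% of genes with 3′ UTRs of like length held it at least 1 time.

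BMF had fewer counts in siMatrin3 but was too low to test, and is not among the genes that fell. It held GAAGACT 2 times, a number reached by 3.39% of genes with 3′ UTRs of like length.
BMF heptamer at base 1913: gggaccagcttGAAGACTggctctgggac
BMF heptamer at base 3316: ggcagaagcggGAAGACTttggtcaccat
GAAGACT occurred in 12.5% of all searched genes, in 7.92% of those that rose and in 32.5% of those that fell. BAK1 and PMAIP1, the genes that fell past the threshold, held none of the first 4 heptamers, nor did BCL2, BCL2L1, BCL2L11, BAD or BIK. PMAIP1 held TATTTAT 3 times near the end of its 3′ UTR of 1552 bases.
PMAIP1 heptamer at base 1219: aggaataatttTATTTATtttgcctattt
PMAIP1 heptamer at base 1232: tttattttgccTATTTATaattaaagtat
PMAIP1 heptamer at base 1467: ttaccatctggTATTTATggtctaatttg
At least 3 copies of TATTTAT were held by 3.36% of genes with 3′ UTRs of like length. MCL1 also held 3, BCL2L11 2, and BCL2 and BCL2L1 1 each, and BAK1, BID, BAD, BIK and BMF held none. As many copies were held by 8.18% of genes of like length for MCL1 and 37.6% for BCL2L11. For BCL2 and BCL2L1 these shares were 72.7% and 34.8%. Over all searched genes TATTTAT occurred in 36%, in 31.9% of those that rose and in 51.4% of those that fell. The shares among genes that rose or fell, for every heptamer, were not matched for 3′ UTR length. A role of TATTTAT in these changes was not tested.

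The balance among the 10 transcripts within a library was then described, as ratios of TPM that do not depend on scaling between libraries. These ratios were chosen after the values of their genes were seen and are given with no test. They leave out the pore former BAX, which was above BAK1, at a mean of 53.6 TPM in siMatrin3 and 51.1 TPM in siCTRL. BOK, BBC3 and the survival gene BCL2L2 are also left out, so the ratios are not the balance of the whole family. The 3 survival genes summed to 80.9, 72.1 and 74.5 TPM in siMatrin3 and 79.7, 82.9 and 79.5 TPM in siCTRL, and the 7 pro-death genes to 102, 95.5 and 113 TPM in siMatrin3 and 112, 119 and 119.8 TPM in siCTRL. Their ratio was 0.791, 0.755 and 0.658 in siMatrin3 and 0.712, 0.698 and 0.664 in siCTRL, with overlapping libraries. Ratios of single pairs stood further apart. MCL1 exceeded PMAIP1, which encodes its antagonist, by 2.84, 2.56 and 2.38 times in siMatrin3 and by 1.82, 1.77 and 1.52 times in siCTRL. MCL1 exceeded BAK1 by 4.68, 4.99 and 4.501 times in siMatrin3 and by 3.17, 3.18 and 2.93 times in siCTRL. BCL2L1 exceeded BAK1 by 2.84, 2.67 and 2.88 times in siMatrin3 and by 1.98, 2.41 and 2.39 times in siCTRL. Among BH3-only transcripts, PMAIP1 made up 19.5% ± 1.38 in siMatrin3 and 26.6% ± 1.38 in siCTRL, and BID 34.5% ± 3.38 in siMatrin3 and 27.5% ± 3.39 in siCTRL (SD, n = 3 each).

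**Figure D4:**
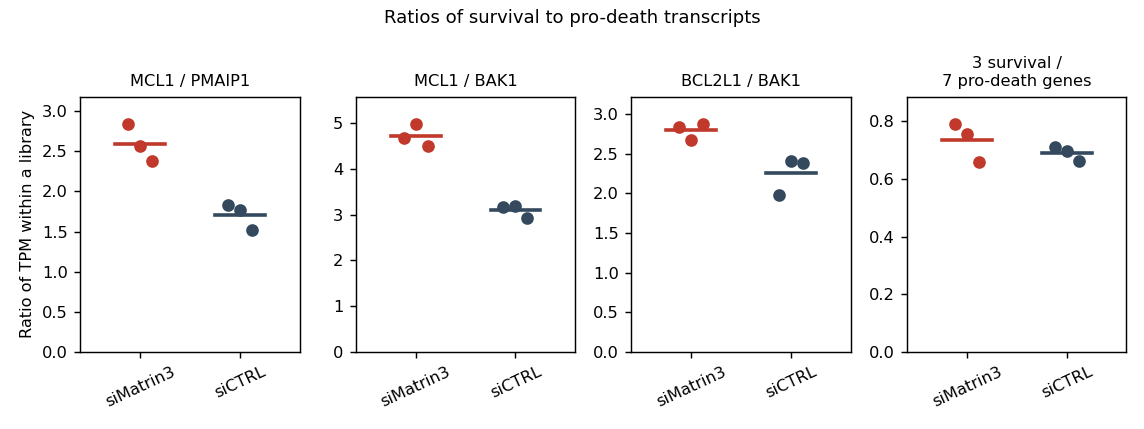
Ratios of TPM within a library (y axes, from 0) in siMatrin3 and siCTRL; points are libraries and lines group means. The ratios of MCL1 to PMAIP1, MCL1 to BAK1 and BCL2L1 to BAK1 do not overlap between the groups, and the ratio of the 3 survival to the 7 pro-death genes does. BAX is not among these genes.

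The effective lengths were compared as a readout of isoform mixture that the gene totals do not use. None of the 10 genes had lengths that separated the groups, and the lowest exact two-sided permutation p was 0.3. BAK1 and BIK had a single value in all libraries, and BIK, with 1 listed transcript, could not vary. BMF had 0 counts in siMatrin3 replicate 3, so its length there rests on no counts. BCL2L11, for which the tables list 25 transcripts, varied most among the well counted genes, with 3204, 4251 and 2665 bases in siMatrin3 and 3096, 2707 and 3095 bases in siCTRL. BCL2L1 was at 2395 ± 80.3 bases in siMatrin3 and 2418 ± 56.6 bases in siCTRL, and MCL1 at 3369 ± 132 bases in siMatrin3 and 3378 ± 123 bases in siCTRL (SD, n = 3 each). Splice forms of similar length, such as those of BCL2L1, may not be told apart by this measure.

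The genes around the family were read from 7 lists of 80 genes, of which 74 were tested, 5 rose and 5 fell. This is 13.5% called, against 10.9% of all tested genes, with a median log2 fold change of 0.04. The lists were chosen with earlier results of these data known. The counts of each list below are a description only, to be read against the same 10.9%. Of 11 other BCL2 family genes, 7 were tested. BCL2L13, a mitochondrial family protein that also acts as a receptor in mitophagy, fell to 50.03 ± 3.86 CPM in siMatrin3, against 62.7 ± 3.73 CPM in siCTRL (SD, n = 3 each), and edgeR gave a log2 fold change of -0.33 with an adjusted p of 0.0195. BAX, the pore former most like BAK, was at a log2 fold change of 0.18 (adjusted p = 0.153 by edgeR) and did not pass, nor did BOK, a further pore-forming member (log2 fold change 0.17, adjusted p = 0.246), or BBC3, the BH3-only gene PUMA (log2 fold change 0.14). Of the further survival genes, BCL2L2, which encodes BCL-W, was at 24.8, 23.2 and 24.5 CPM in siMatrin3 and 30.2, 28.8 and 30.6 CPM in siCTRL. Its groups did not overlap, but with an adjusted p of 0.0521 by edgeR at a log2 fold change of -0.30 it missed the threshold. Its mean of 7.24 TPM in siMatrin3 and 8.90 TPM in siCTRL was above that of BCL2. BCL2A1 and BCL2L10 had no counts in any library.

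Downstream of the pore, 1 of 14 genes of the apoptosome, the caspases and their substrates rose and none fell. DFFA, the inhibitor of the nuclease that cuts DNA in apoptosis, rose to 137 ± 7.75 CPM in siMatrin3, against 104 ± 7.46 CPM in siCTRL (SD, n = 3 each), and edgeR gave a log2 fold change of 0.40 with an adjusted p of 0.00276. CYCS, APAF1 and CASP9, which form the apoptosome, did not pass, at log2 fold changes of 0.04 to 0.13. Of 5 tested inhibitors of apoptosis, XIAP, which blocks caspases, rose (log2 fold change 0.44, adjusted p = 0.00527 by edgeR), as did BIRC5, which encodes survivin (0.25, 0.0159), and BIRC2, a ubiquitin ligase of death receptor signalling, fell (-0.31, 0.0161). XIAP was at 55.3, 50.1 and 58.8 CPM in siMatrin3 and 43.4, 39.8 and 38.2 CPM in siCTRL. Its mean TPM was 11.3 in siMatrin3 and 12.1 in siCTRL, so the rise in CPM was not seen in TPM. The median of all genes on log2(TPM + 1) was itself at -0.09, so this small TPM difference is not read as a fall. None of 7 death receptor genes passed, and those with the lowest p were CFLAR (log2 fold change -0.22, adjusted p = 0.204) and FADD (0.25, 0.215).

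Of 10 transcription factors known to act on the family, 1 rose and 2 fell, where 10.9% of all tested genes passed in either direction. ATF4, the factor of the integrated stress response, rose (log2 fold change 0.27, adjusted p = 0.0383 by edgeR) to 250 ± 14.7 CPM in siMatrin3, against 207 ± 23.4 CPM in siCTRL (SD, n = 3 each). PMAIP1, a known target of ATF4, was lower in the same siMatrin3 libraries, and a link between these RNAs was not tested. STAT3, which drives BCL2L1 and MCL1 in many tumours, fell (-0.45, 0.00138), as did TP73 (-0.40, 0.0117). Of 16 binding partners and enzymes that set the stability of the family proteins, YWHAG, a 14-3-3 protein, rose (0.29, 0.00396) and MAPK8, which encodes the kinase JNK1, fell (-0.35, 0.0123). FBXW7, HUWE1, USP9X and MARCHF5, which set the turnover of MCL1, did not pass (-0.10 to 0.25). Of 15 tested factors reported to choose the splice site of BCL2L1, none passed, and those with the lowest p were SRSF3 (0.12, adjusted p = 0.136) and SRSF2 (0.10, adjusted p = 0.275). PTBP1, a partner of Matrin3 in splicing, was at a log2 fold change of 0.00.

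**Figure D5:**
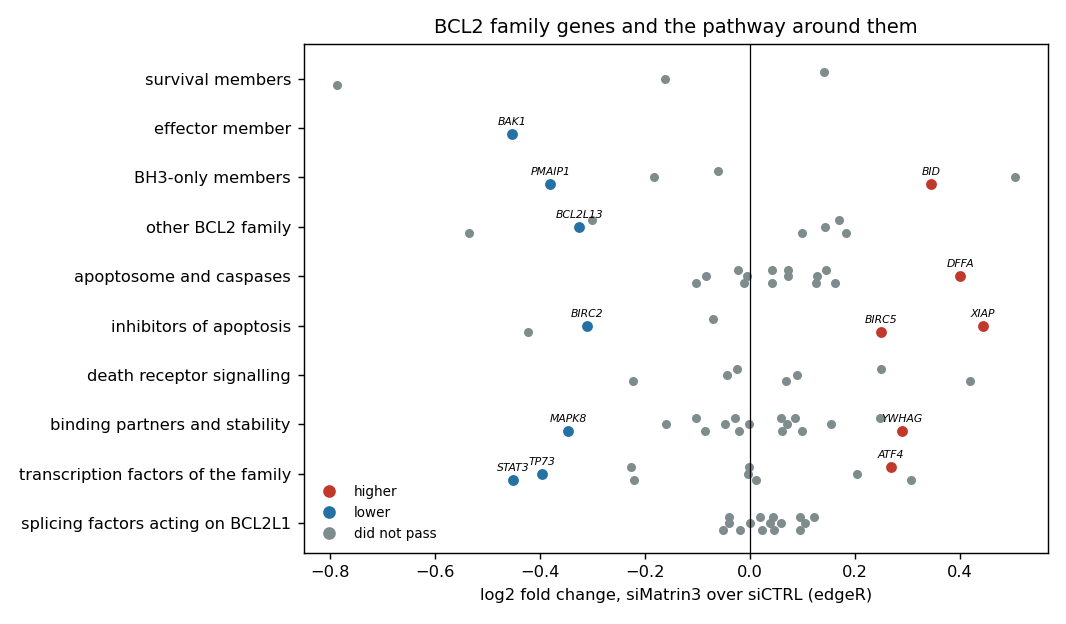
Log2 fold change of siMatrin3 over siCTRL (x axis) for the tested genes of the family and of 7 lists around it (y axis); red points rose, blue points fell, and grey points did not pass at an adjusted p under 0.05 by edgeR. The splicing factors lie between -0.05 and 0.12, while the inhibitors of apoptosis hold genes past the threshold on both sides of 0.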

How the data were processed

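Per the labels and the study's methods, the authors trimmed reads of 50 bases with cutadapt, aligned them to hg19 with TopHat and quantified genes with RSEM. The deposited expected counts are estimated reads per gene with no scaling between libraries, and the deposited TPM values were scaled by the authors' RSEM runs within each library by effective length. Which annotation release was used, and whether strand was counted, is not given here, so reads of overlapping or antisense genes are uncertain.

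Gene IDs were matched to GENCODE release 44 on hg38 (99.3% of 58884), which gives the positions. Expected counts were rounded, filtered with filterByExpr (minimum count 10, minimum total 15), scaled by TMM and tested across all 14334 genes with edgeR 4.0.16 in R 4.3.3 (quasi-likelihood, Benjamini-Hochberg, two-sided). An adjusted p under 0.05 was called. Standard errors were the log2 fold change over the root of the F statistic. The procedure was tested on simulated counts. Alternatives were other scalings and filters, an offset of effective lengths, the loss of each library in turn, a block for the replicate number, DESeq2 1.42.0, and limma 3.58.1 on log2(TPM + 1) and log2(TPM + 0.1), and an adjusted p of 0.01. Same-numbered siMatrin3 and siCTRL libraries deviated together (r = 0.107, 0.104 and 0.157 across genes), so the numbers may pair them. Pairs with unlike numbers had r of -0.084 to -0.024. Values were centred within each group first, which makes positive and negative r roughly offset each other. Such a pairing is read from the data, since the labels do not say what a number shares. The main fit compared the groups without it, and only the alternative with a block for the replicate number used it. No 2 libraries agreed within sampling noise. The spread tested is that between cultures of 1 line.

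The members and gene lists were chosen with earlier results of these data known. All 10 members are named; of the other lists, the genes that passed and, where none did, the 2 with the lowest p. Genes named besides these (BAX, BOK, BBC3, BCL2L2, BCL2A1, BCL2L10, CYCS, APAF1, CASP9, FBXW7, HUWE1, USP9X, MARCHF5, PTBP1 and the markers too low to test) were chosen after their values were seen. Some genes are not reported here, and the list counts leave them out. Protein sequences were not used here.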

Additional observations from a re-analysis of the deposited data

How the results depend on the processing

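Between 350 and 631 genes were higher and between 357 and 625 lower when 1 library was left out, against 814 higher and 743 lower with all. Of the family, 0 to 1 rose and 1 to 3 fell when 1 library was left out. With effective lengths as an offset, 127 genes were higher and 104 lower, and of the family 0 rose and 0 fell, with each of the 9 estimates on the same side of 0. DESeq2 called 572 higher and 473 lower, limma on log2(TPM + 1) 31 and 118, limma on log2(TPM + 0.1) 30 and 102, and an adjusted p of 0.01 left 294 and 295. Under each of these 4, 0 of the family rose and 1 fell, BAK1 with DESeq2 and at 0.01, and PMAIP1 on TPM values. On log2(TPM + 0.1) the median of all genes moved to -0.10. Relative to it, BAK1 was at -0.47, PMAIP1 at -0.47, BID at 0.31 and MCL1 at 0.14. With the replicate number as a block, 1203 genes were higher and 1056 lower, the family again had 1 higher and 2 lower, and no call of a member changed (BAK1 -0.46, PMAIP1 -0.37, BID 0.35). Under other scalings and filters and without mitochondrial and small RNA genes, 1 of the family was higher and 2 were lower. Depth limited BMF and BCL2, with 0 to 13 and 16 to 67 counts per library.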
